A study of Xenopus laevis with 12 samples.

Results

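The immediate early genes are genes whose transcripts rise within minutes of a stimulus, such as a growth factor, calcium entry, neuronal firing or injury, without new protein synthesis. Most encode transcription factors. Proteins of the Fos and Jun families pair through leucine zippers to form AP-1, which binds DNA in the control regions of genes of growth, matrix turnover and stress. Egr1 and Egr2 are zinc finger factors, Nr4a1 is an orphan nuclear receptor, Atf3 is a zipper protein of the stress response, and Ier2 is a small nuclear protein. In the developing head, egr2 (Krox20) is best known for marking segments of the hindbrain. The genes described here are the .L and .S copies (homeologs, the pair of copies left by the genome duplication of this species) of 10 listed symbols, fos, fosb, fosl2, jun, junb, egr1, egr2, ier2, atf3 and nr4a1. The gene table matched 19 rows to these symbols among 37018 rows of counts, both copies for each symbol except egr2, which was matched by egr2.L. Of the 19 rows, 17 passed a filter on low counts that kept 27050 genes. The rows fosb.L and fosb.S did not pass and were not tested.

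The series sequenced RNA of whole tadpole heads (Xenopus laevis), 3 libraries in each of 4 groups. Control (wild-type) tadpoles and tadpoles with craniofacial malformations after thioridazine, an antipsychotic phenothiazine that blocks dopamine receptors, were each sampled at stages 45 and 47 of the Nieuwkoop and Faber (NF) series. Thioridazine was given at 90 µM during NF stages 14 to 26, at 18 °C for exposed and control embryos alike. The heads were thus taken long after the exposure. A rearing temperature of 14 °C is given for all groups. The treated heads came from malformed animals, the vehicle of the controls is not given in the labels, and the labels do not say which clutch or how many animals a biological replicate holds, so a p-value here speaks of the spread between libraries, which may be technical.

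Libraries held between 11998636 and 16933777 counts, of which between 2866 and 5556 fell on the 19 rows. Levels are given as CPM, counts scaled to a library of 1000000, with library sizes multiplied by a TMM factor between 0.937 and 1.08. Levels of different genes are not compared, since they are not per length. Changes are log2 fold changes from a quasi-likelihood fit of edgeR over all 12 libraries, which does not pair libraries by replicate number. A gene was called at an adjusted p (Benjamini-Hochberg over all 27050 genes) under 0.05. In whole heads, more cells of a type and more RNA per cell cannot be told apart.

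From stage 45 to stage 47, a part of the immediate early genes rose in thioridazine heads, with nr4a1 and fos at 2.10 to 2.59 times their earlier level. There 6 of the 17 tested rows were called higher, namely both copies of nr4a1 and fos with jun.L and junb.L, where 2.09% of all tested genes were called higher. None was called lower, where 2.77% of all tested genes were. In control heads over the same stages 1 row, nr4a1.S, was called higher and none lower, where 3.03% of all tested genes were called higher and 3.21% lower. The difference between both stage changes was not called for any row, and no row was called between thioridazine and control heads at either stage. The egr2, ier2, atf3 and fosl2 rows were called in no comparison.

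The summed level of the 19 rows was 220, 241 and 209 CPM in control replicates 1, 2 and 3 of stage 45, and 212, 210 and 221 CPM in the thioridazine replicates of that stage. At stage 47 it was 249, 247 and 331 CPM in controls and 292, 345 and 288 CPM in thioridazine heads. Every stage 47 library thus stood above every stage 45 library. The order of the group means was thioridazine stage 45 (215 ± 5.94 CPM, SD, n = 3), control stage 45 (224 ± 16.3 CPM), control stage 47 (275 ± 47.8 CPM) and thioridazine stage 47 (308 ± 31.9 CPM). At each stage the control and thioridazine sums overlapped, so the treatment neighbours in this order did not differ beyond their spread. Control replicate 3 of stage 47 was the highest library of its group in 12 of the 17 tested rows, and thioridazine replicate 2 of stage 47 in 13 of 17.

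**Figure D1:**
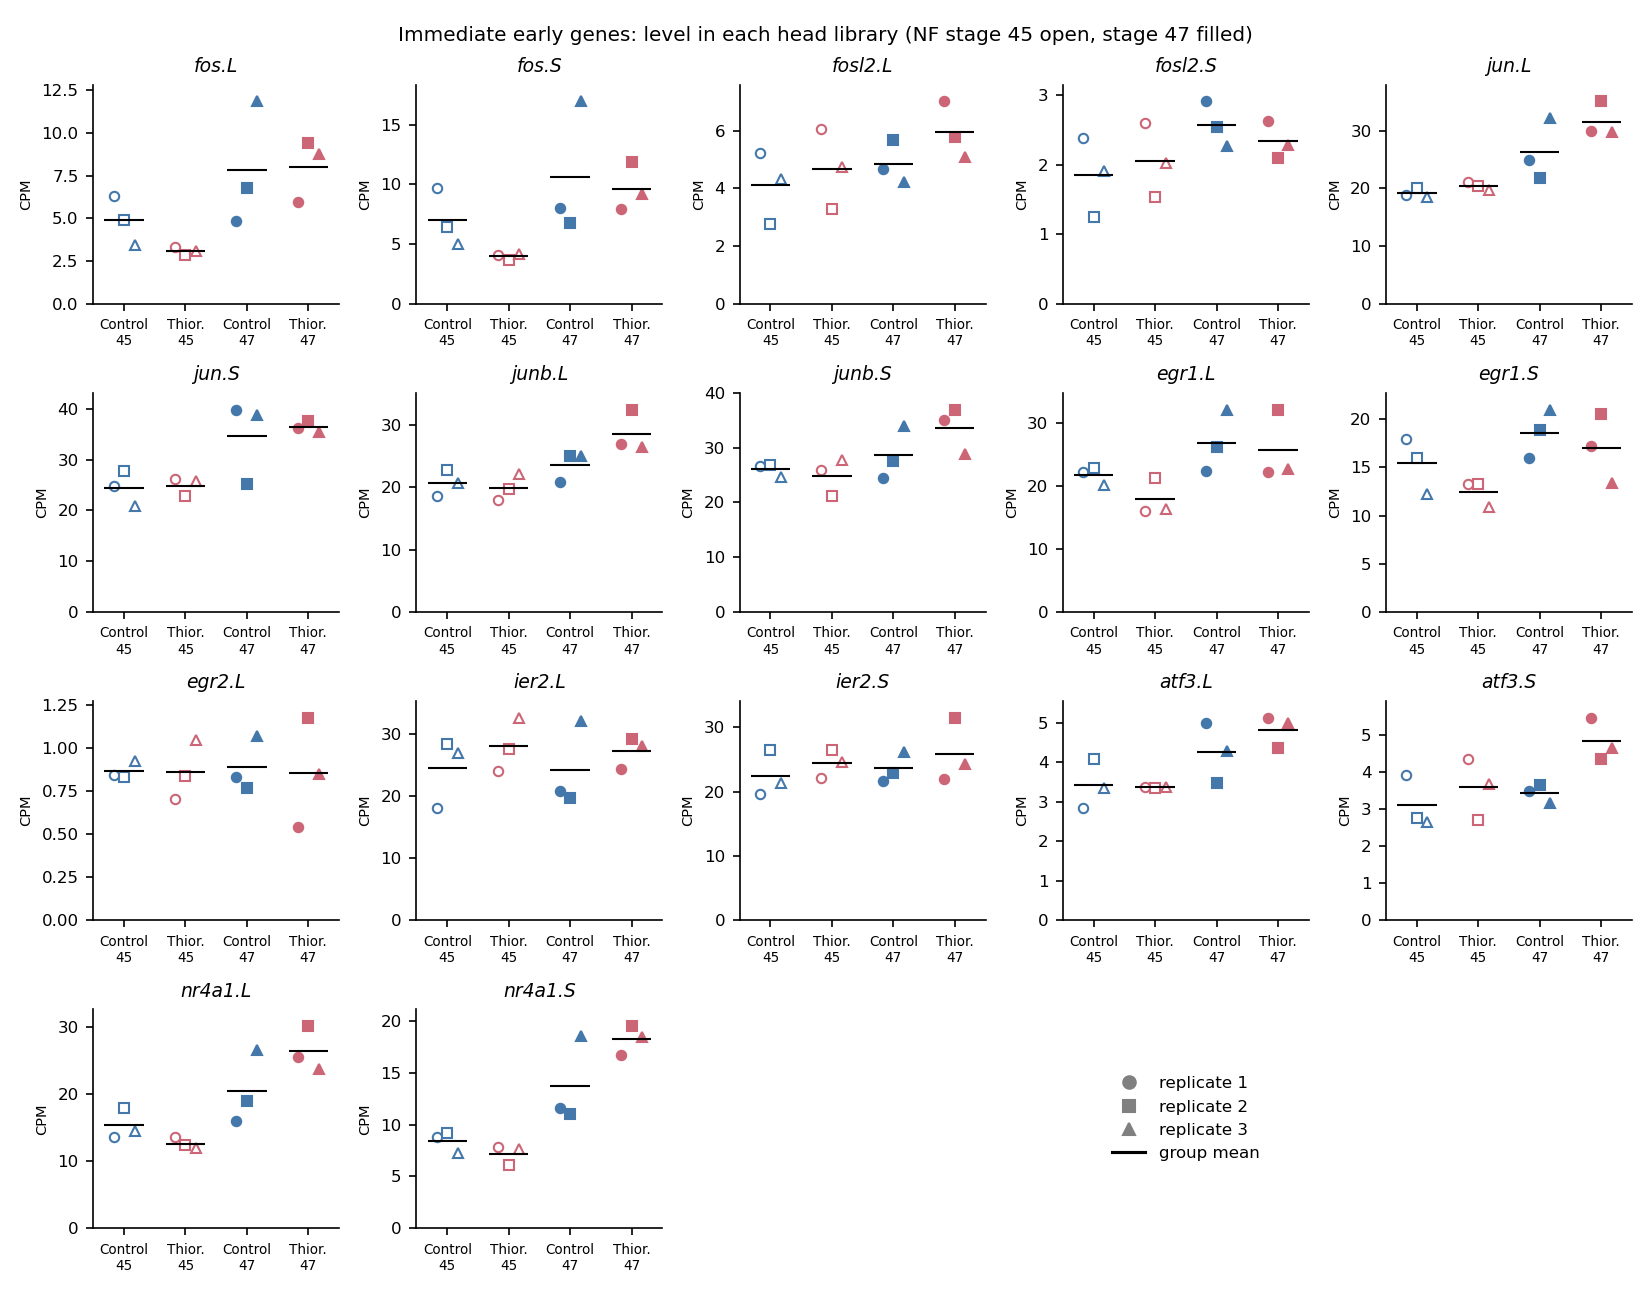
Level of each tested immediate early gene row in CPM (y axis, from 0) in the 12 head libraries, by group of treatment and NF stage (x axis), with replicates 1, 2 and 3 as circles, squares and triangles and the group mean as a bar. The stage 47 thioridazine libraries of nr4a1.S lie between 16.7 and 19.5 CPM and those of stage 45 between 6.13 and 7.80 CPM.

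The orphan receptor nr4a1 rose in thioridazine heads in both copies. In thioridazine heads nr4a1.S (gene 379851) measured 7.80, 6.13 and 7.62 CPM in replicates 1, 2 and 3 of stage 45 and 16.7, 19.5 and 18.4 CPM in those of stage 47. The groups did not overlap, and the level rose 2.53-fold (log2 fold change 1.34, SE 0.19, adjusted p = 0.00342). In controls it measured 8.77, 9.15 and 7.28 CPM at stage 45 and 11.6, 11 and 18.5 CPM at stage 47. These groups did not overlap either, with replicate 3 well above the other libraries of stage 47, and the level rose 1.64-fold (log2 fold change 0.71, SE 0.19, adjusted p = 0.0430). This call in controls was lost without any single control library (adjusted p = 0.0520 to 0.160), and also without each thioridazine library except replicate 2 of stage 45 (0.0514 to 0.0594). Without control replicate 3 of stage 47 the log2 fold change in controls was 0.43.

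The other copy, nr4a1.L (gene 373674), measured 13.6, 12.4 and 11.9 CPM in thioridazine heads of stage 45 and 25.6, 30.1 and 23.7 CPM in those of stage 47. It rose 2.10-fold, again without overlap (log2 fold change 1.07, SE 0.17, adjusted p = 0.00498). In controls it measured 13.5, 17.9 and 14.6 CPM at stage 45 and 16, 19.0 and 26.5 CPM at stage 47, with overlapping groups (adjusted p = 0.168, log2 fold change 0.43, SE 0.17). The calls of both copies in thioridazine heads held without any single library of the 12, with adjusted p-values between 0.00177 and 0.0275.

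The gene fos encodes the founding Fos subunit of AP-1. In thioridazine heads fos.L (gene 108698676) measured 3.30, 2.86 and 3.07 CPM at stage 45 and 5.94, 9.40 and 8.73 CPM at stage 47. It rose 2.59-fold (log2 fold change 1.37, SE 0.32, adjusted p = 0.0256). In thioridazine heads fos.S (gene 447201) measured 4.08, 3.69 and 4.12 CPM at stage 45 and 7.90, 11.8 and 9.16 CPM at stage 47, and rose 2.42-fold (log2 fold change 1.27, SE 0.34, adjusted p = 0.0462). For both copies the stage groups were apart, and the 3 libraries of stage 45 lay close together. The call of fos.L was lost without each of thioridazine replicates 1, 2 and 3 of stage 45 and replicates 2 and 3 of stage 47 (adjusted p = 0.0604 to 0.0929). That of fos.S was lost without any of the 6 thioridazine libraries (0.0851 to 0.146) and without control replicate 2 of stage 45 (0.0585).

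In control heads fos.L measured 6.31, 4.91 and 3.41 CPM at stage 45 and 4.82, 6.79 and 11.8 CPM at stage 47. The level of fos.S was 9.69, 6.41 and 4.97 CPM at stage 45 and 7.98, 6.79 and 17 CPM at stage 47. The stage groups overlapped in both copies, and control replicate 3 of stage 47 held the highest level of the 12 libraries. The log2 fold changes in controls were 0.70 for fos.L (SE 0.31, adjusted p = 0.201) and 0.60 for fos.S (SE 0.32, adjusted p = 0.304). Without control replicate 3 of stage 47 they were 0.27 and 0.08.

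The fos relative fosb, another AP-1 subunit known from stimulated neurons, was close to undetected. Summed over the 3 libraries of a group, fosb.L had 4 and 7 reads in controls and 3 and 10 reads in thioridazine heads at stages 45 and 47. For fosb.S the sums were 5 and 9 reads in controls and 4 and 19 reads in thioridazine heads. No library held more than 8 reads of either copy. In thioridazine heads fosb.S had 1, 2 and 1 reads at stage 45 and 8, 6 and 5 at stage 47, without overlap. With the filter left off, its log2 fold change between these stages was 2.35 (edgeR, unadjusted p = 0.00443, adjusted p = 0.0838), and that of fosb.L was 1.80 (adjusted p = 0.386).

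The third Fos family gene, fosl2, encodes an AP-1 subunit with a more lasting response in mammals. In thioridazine heads fosl2.L (gene 398055) measured 6.04, 3.27 and 4.73 CPM at stage 45 and 7.02, 5.79 and 5.09 CPM at stage 47, so the groups overlapped. Its log2 fold change between stages was 0.35 (95% interval -0.21 to 0.92) there and 0.24 (-0.34 to 0.81) in controls. The copy fosl2.S (gene 108717669) had 15 to 43 reads a library, and its log2 fold changes between stages were 0.19 in thioridazine and 0.46 in control heads.

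The Jun family supplies the partners of Fos in AP-1. In thioridazine heads jun.L (gene 399400) measured 21.1, 20.5 and 19.7 CPM at stage 45 and 29.9, 35.1 and 29.8 CPM at stage 47, a rise of 1.55-fold without overlap (log2 fold change 0.63, SE 0.13, adjusted p = 0.0172). The call was lost without thioridazine replicate 3 of stage 45 (adjusted p = 0.0735) or replicate 2 of stage 47 (0.0750). In controls jun.L measured 18.8, 20.1 and 18.5 CPM at stage 45 and 24.9, 21.7 and 32.2 CPM at stage 47. These groups did not overlap, and the adjusted p of 0.0547 was just over the threshold (log2 fold change 0.46, SE 0.13). Without control replicate 2 of stage 47, the lowest library of its group, that adjusted p was 0.0450. Without control replicate 3 of stage 47 it was 0.199, with a log2 fold change of 0.29. With all libraries, jun.L passed in controls with DESeq2 (adjusted p = 0.0274), upper-quartile scaling (0.0401) and the replicate number as a block (0.0397). It did not pass there in a fit of the compared groups alone. Whether jun.L was called in controls thus depended on the fit.

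The copy jun.S (gene 379050) measured 26.1, 22.9 and 25.8 CPM at stage 45 and 36.2, 37.7 and 35.5 CPM at stage 47 in thioridazine heads. In controls it measured 24.8, 27.8 and 20.9 CPM at stage 45 and 39.9, 25.2 and 38.8 CPM at stage 47, where replicate 2 fell within the range of stage 45. Its log2 fold change was 0.55 (SE 0.16, adjusted p = 0.0573) in thioridazine and 0.50 (SE 0.16, adjusted p = 0.0733) in control heads, so jun.S was called in neither by the edgeR fit of all libraries. It passed in thioridazine heads with DESeq2 (adjusted p = 0.0204), upper-quartile scaling (0.0410) and the compared groups alone (0.0170), and in controls with DESeq2 (0.0370). Of the Jun genes it had the most similar changes in both kinds of head, with a difference of 0.05 (95% interval -0.42 to 0.52). Without control replicate 2 of stage 47 it passed in both kinds of head (adjusted p = 0.0198 in thioridazine and 0.0201 in control heads), and without control replicate 2 of stage 45 in thioridazine heads (0.0420).

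The gene junb encodes a Jun protein that in mammals often restrains c-Jun. In thioridazine heads junb.L (gene 432129) measured 18.0, 19.8 and 22.1 CPM at stage 45 and 27.0, 32.5 and 26.4 CPM at stage 47, and rose 1.43-fold (log2 fold change 0.52, SE 0.13, adjusted p = 0.0312). In controls its log2 fold change was 0.20 (SE 0.13, adjusted p = 0.404), with overlapping groups at 20.7 ± 2.13 and 23.7 ± 2.43 CPM (SD, n = 3). The call in thioridazine heads was lost without any of the 6 thioridazine libraries (adjusted p = 0.0575 to 0.130). The copy junb.S (gene 779417) measured 25.9, 21.2 and 27.7 CPM at stage 45 and 35.0, 36.9 and 28.9 CPM at stage 47 in thioridazine heads. Its stage groups were apart by little, and with a value of 0.43 on the log2 scale (SE 0.14) it missed the threshold by edgeR (adjusted p = 0.0893). With DESeq2 junb.S passed in thioridazine heads (adjusted p = 0.0460). In control heads the log2 fold change of junb.S was 0.14 (SE 0.14, edgeR adjusted p = 0.618), with overlapping groups.

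The zinc finger gene egr1 was not called in either kind of head by the edgeR fit without a block. With the replicate number as a block in that fit, egr1.L passed in thioridazine heads (adjusted p = 0.0344). It also passed there with a block within each treatment (0.0436). In thioridazine heads egr1.L (gene 399162) measured 16, 21.3 and 16.3 CPM at stage 45 and 22.2, 32.2 and 22.7 CPM at stage 47, and in controls 22.2, 22.9 and 20.1 CPM and then 22.4, 26.2 and 32.1 CPM. The stage groups were apart in thioridazine heads and overlapped in controls. The log2 fold change was 0.52 (SE 0.17, adjusted p = 0.0954) in thioridazine and 0.31 (SE 0.17, adjusted p = 0.310) in control heads. For egr1.S (gene 414518) it was 0.45 (adjusted p = 0.176) and 0.28 (adjusted p = 0.400). The hindbrain gene egr2.L (gene 378520) had 8 to 18 reads a library and group means between 0.854 and 0.890 CPM. Its 95% intervals reached from -0.81 to 0.74 in thioridazine and from -0.72 to 0.80 in control heads on the log2 scale. Changes within these bounds could thus not be excluded at this depth.

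The nuclear protein gene ier2 was called in neither kind of head. Over all 12 libraries ier2.L (gene 100316913) ranged from 18.0 to 32.5 CPM, with a log2 fold change between stages of -0.05 (95% interval -0.47 to 0.38) in thioridazine and -0.01 (-0.44 to 0.42) in control heads. For ier2.S (gene 100316912) the values were 0.08 (-0.23 to 0.40) and 0.08 (-0.24 to 0.39). The stress factor atf3 was read less deeply, with 33 to 81 reads a library and copy. In thioridazine heads atf3.L (gene 447311) measured 3.37, 3.34 and 3.38 CPM at stage 45 and between 4.37 and 5.13 CPM at stage 47, without overlap, but its log2 fold change was 0.52 (SE 0.21) and was not called (adjusted p = 0.179). For atf3.S (gene 108717719) the highest library of stage 45 (4.36 CPM) and the lowest of stage 47 (4.37 CPM) almost met, and the log2 fold change was 0.43 (adjusted p = 0.332).

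**Figure D2:**
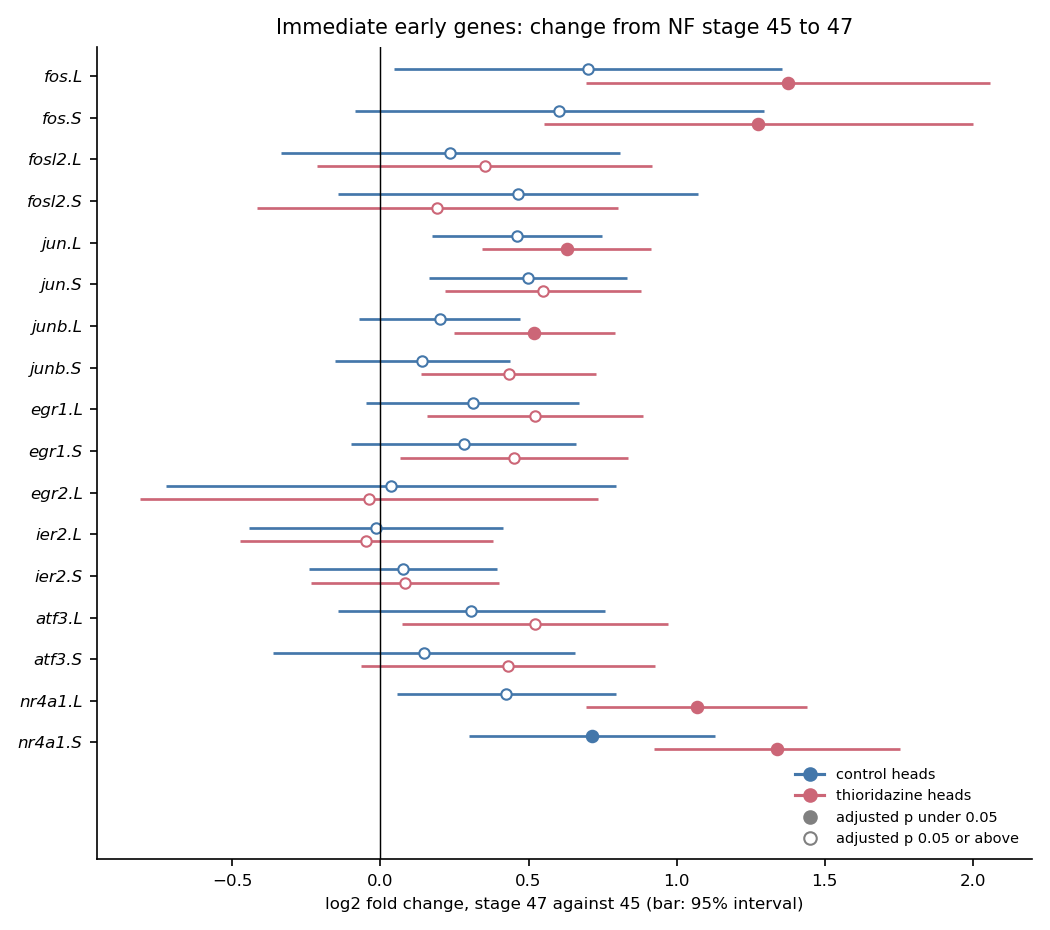
Log2 fold change from NF stage 45 to stage 47 (x axis) of each tested immediate early gene row (y axis) in control and thioridazine heads, with 95% intervals as bars and filled points for an adjusted p under 0.05. In thioridazine heads 6 rows are filled and in control heads 1, and the ier2 and egr2.L points lie near 0 in both.

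Taken over the 17 tested rows, 15 had a positive log2 fold change between stages in thioridazine heads and 16 in controls, against 49.2% and 48.6% of all tested genes. At an unadjusted p under 0.05 there were 11 rows higher in thioridazine heads (8.72% of all tested genes) and 5 in controls (9.83%). The median was 0.52 in thioridazine and 0.31 in control heads, and the median of all tested genes was -0.01 in each. In thioridazine heads 12 rows had every stage 47 library above every stage 45 library, where this held for 11.4% of all tested genes. In controls this held for 2 rows (jun.L and nr4a1.S), where 11.7% of all tested genes showed it. These counts describe rows that were listed with earlier results known, and copies of a gene are not independent.

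The question whether the stage change differed between thioridazine and control heads was put to the difference of both changes, and no row passed (adjusted p = 1.00 for each). At an unadjusted p under 0.05 there were 2 of 17 rows, both copies of nr4a1, and 0 rows were called by DESeq2. Over all tested genes edgeR called 0 (0% higher), with 313 higher and 262 lower at an unadjusted p under 0.05, and DESeq2 called 4. For nr4a1.L the difference was 0.64 on the log2 scale (95% interval 0.12 to 1.17, unadjusted p = 0.0196), and for nr4a1.S it was 0.62 (0.04 to 1.21, unadjusted p = 0.0380). For fos.L it was 0.67 and for fos.S 0.67, with intervals that reached from -0.27 to 1.62 and from -0.33 to 1.67. Of the 17 rows, 14 had a positive difference, against 49.1% of all tested genes, with a median of 0.21. Without control replicate 3 of stage 47 the differences were 0.87 and 0.91 for nr4a1.L and nr4a1.S and 1.1 and 1.2 for fos.L and fos.S, and none passed (adjusted p = 1.00). That library was mostly the highest of its group, as was thioridazine replicate 2 of stage 47. Without the latter, the stage changes in thioridazine heads were smaller, 0.97 for nr4a1.L and 1.29 for nr4a1.S against 1.07 and 1.34. The differences without that thioridazine library are not given here, so the effects of leaving out either library are not on the same measure.

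**Figure D3:**
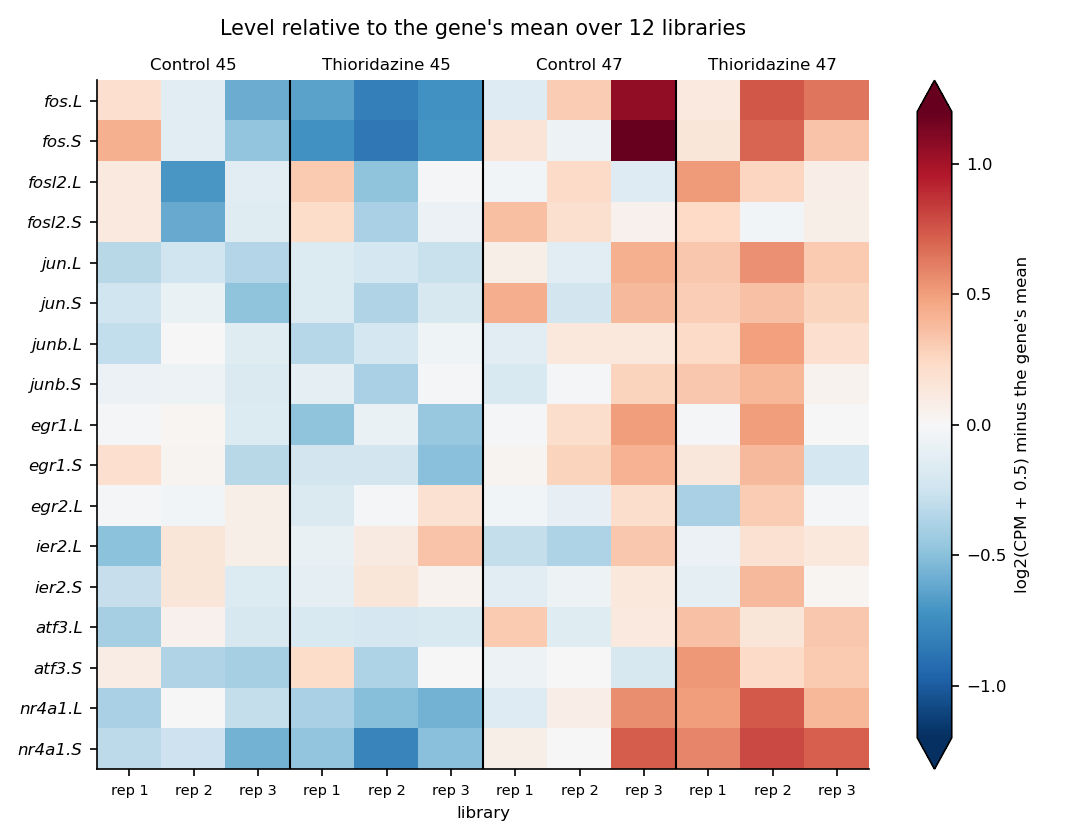
Level of each tested row (y axis) in each library (x axis) as log2(CPM + 0.5) minus the row's mean over the 12 libraries, red for above and blue for below, with colours saturated past 1.2. The stage 45 libraries of both treatments are mostly blue for fos, jun and nr4a1, while control replicate 3 and the thioridazine replicates of stage 47 are mostly red.

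The comparison of thioridazine with control heads at stage 45 asked whether these genes differed in malformed heads at the earlier stage. No row was called by edgeR or by DESeq2 (smallest adjusted p = 0.868 and 0.646, both for fos.S), and 1 row, fos.S, was lower at an unadjusted p under 0.05, with 0 rows higher. Over all tested genes edgeR called 0 (0% lower, 0% higher), with 609 higher (2.25%) and 832 lower (3.08%) at an unadjusted p under 0.05, and DESeq2 called 76. With the replicate number as a block 16 genes passed, and with a block within each stage 268, none of them among the 17 rows. Both fos copies lay lower in each thioridazine library than in any control library, which held for 5.36% of all tested genes and for 2 of the 17 rows. No row lay higher without overlap, which held for 4.19% of all tested genes. The fold was 0.636 for fos.L (log2 fold change -0.65, 95% interval -1.35 to 0.04) and 0.568 for fos.S (-0.82, -1.55 to -0.08). Blocking within stage gave adjusted p-values of 0.207 for fos.L and 0.487 for fos.S. The log2 fold changes of egr1.L, egr1.S, nr4a1.L and nr4a1.S were -0.28, -0.30, -0.28 and -0.22, with overlapping groups, and those of the ier2 copies 0.20 and 0.12. Within pairs of the same replicate number, the thioridazine library was lower in 3 of 3 pairs for egr1.L (log2 differences -0.47, -0.10 and -0.30) and for egr1.S (-0.43, -0.26 and -0.17), as it was for both fos copies, and in 2 of 3 for each nr4a1 copy. It was higher in 3 of 3 pairs for fosl2.L (0.20, 0.24 and 0.12), fosl2.S (0.12, 0.27 and 0.08) and jun.L (0.17, 0.03 and 0.09). For ier2.S the differences were 0.17, 0.00061 and 0.21, so the libraries of pair 2 hardly differed. The share of all tested genes with 3 of 3 pairs in the same direction was not computed, so these counts do not set the rows apart from other genes. Of the 17 rows 10 had a negative value and 7 a positive value, against 46.7% and 53.3% of all tested genes.

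At stage 47 the same question was asked of the later heads, and again no row was called by edgeR or DESeq2 (adjusted p = 1.00 for each row in both). At an unadjusted p under 0.05 there were 3 rows higher, junb.L, nr4a1.L and nr4a1.S (1.94% of all tested genes), and 0 lower (1.59%). Of the 17 rows 12 had a positive and 5 a negative value (51% and 49% of all tested genes). At the adjusted threshold edgeR called 20 of all tested genes (0.0739%, all higher) and DESeq2 68. The replicate block gave 51 genes and the block within each stage 171, with none of the 17 rows among them (smallest adjusted p = 0.702 for junb.L and 0.306 for nr4a1.S). The fold was 1.29 for nr4a1.L (95% interval of the log2 fold change 0.00 to 0.73), 1.32 for nr4a1.S (0.01 to 0.80) and 1.21 for junb.L (0.00 to 0.54). Within pairs of the same replicate number, the log2 differences of pairs 1, 2 and 3 were 0.68, 0.67 and -0.16 for nr4a1.L. They were 0.53, 0.81 and -0.01 for nr4a1.S and 0.37, 0.37 and 0.07 for junb.L. The nr4a1 copies were thus not higher in pair 3. The median over the 17 rows was 0.23, 0.45 and -0.13 in pairs 1, 2 and 3. In 2 rows, junb.L and atf3.S, every thioridazine library lay above every control library, where this held for 4.78% of all tested genes. The level of atf3.S was 5.47, 4.37 and 4.66 CPM in thioridazine against 3.49, 3.66 and 3.15 CPM in control heads, a log2 fold change of 0.49 (SE 0.23, unadjusted p = 0.0511). The fos copies, apart at stage 45, overlapped here, with log2 fold changes of 0.02 and -0.14 that became 0.45 and 0.38 without control replicate 3. That library was the highest of its group for both copies, as was thioridazine replicate 2. The values without the latter are not given here, so the dependence on single libraries is shown in 1 direction only. The treatment and the stage comparisons share libraries, so their values are set side by side and are not independent of each other.

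**Figure D4:**
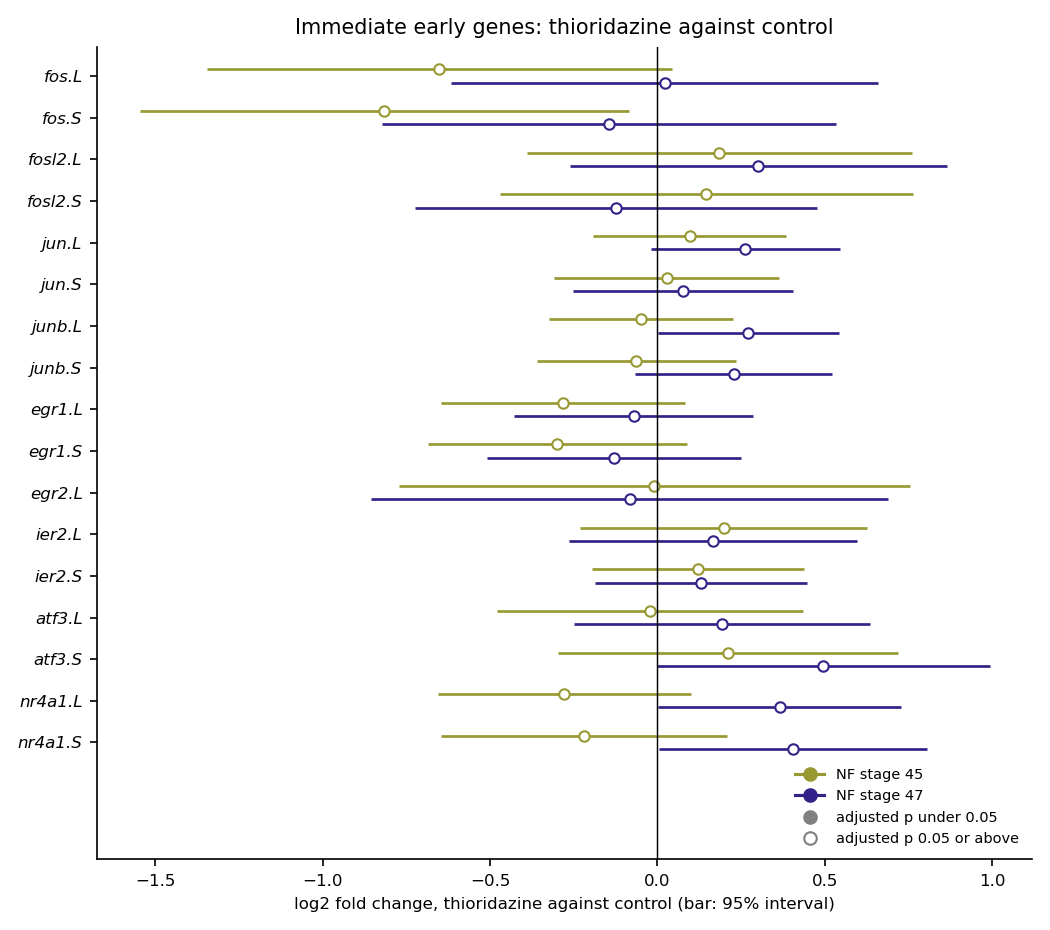
Log2 fold change of thioridazine against control heads (x axis) for each tested row (y axis) at NF stage 45 and stage 47, with 95% intervals as bars. No point is filled, since no row reached an adjusted p under 0.05, and the lowest values are those of fos.L and fos.S at stage 45, -0.65 and -0.82.

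The homeologs of a gene were compared by their changes. Among the 8 pairs with both copies tested, the log2 fold changes between stages had the same sign in 7 pairs in each kind of head, and the copies differed by at most 0.29 in controls and 0.27 in thioridazine heads. Between thioridazine and control heads the sign was the same in 7 of 8 pairs at stage 45 and in 6 of 8 at stage 47, where the fosl2 copies differed by 0.43 (fosl2.L 0.30, fosl2.S -0.12). The .L copy supplied 64.5% ± 3.31 of the nr4a1 reads in controls of stage 45 and 60.0% ± 2.77 in those of stage 47, and 63.8% ± 2.97 and 59.2% ± 2.46 in thioridazine heads (SD, n = 3). The .L share of fos was 41.2% ± 2.02 and 42.9% ± 6.36 in controls and 43.7% ± 1.02 and 45.3% ± 3.09 in thioridazine heads, within its spread. For fosl2 the .L share was between 65.2% and 71.7% in the group means, for egr1 between 58.7% and 60.1%, and for jun between 43.4% and 46.3%. How reads common to both copies were counted is not given in the sources used here, which makes the split between copies uncertain. With both copies summed, fos, jun, junb and nr4a1 were called in thioridazine heads (adjusted p = 0.0295, 0.0220, 0.0306 and 0.00268), and jun in controls (0.0439).

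The members did not all follow each other. Across the 12 libraries the Pearson correlation of a row's log2 CPM with the mean of the other tested rows was 0.98 for nr4a1.S, 0.93 for nr4a1.L and jun.L, 0.89 for fos.L and 0.84 for fos.S. It was 0.09 for ier2.L, 0.14 for egr2.L and between 0.32 and 0.36 for the fosl2 copies and ier2.S. On deviations from the group means, which leave out stage and treatment, it was 0.92 for nr4a1.S, 0.88 for fos.S, 0.83 for jun.L and 0.79 for fos.L and junb.S, and below 0 for both copies of fosl2 and of atf3. These values describe 12 libraries that share stage and treatment, and rows read shallowly carry counting error that lowers them. The mean of the other rows included the second copy of the same gene. The mean log2 CPM of the tested rows was 3.73 in control replicate 3 of stage 47, against 3.37 in each other library of its group. In thioridazine replicate 2 of stage 47 it was 3.79, against 3.57 in each other library of its group. Correlations without these libraries are not given here.

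Genes whose levels were most like those of the set depended on the measure. By the Pearson correlation of log2 CPM with the mean of the tested rows, among 19992 named genes of at least 1 CPM, the first 10 were zfp36l1.S (0.97), zfp36.S (0.94), cxcr4.S (0.94), arc.L (0.93), cebpd.L (0.92), zfp36.L (0.91), slc26a9.S (0.91), rgs2.L (0.90), ccn1.L (0.90) and ccn1.S (0.90). Of these, zfp36 and zfp36l1 encode proteins that hasten the decay of AU-rich messenger RNAs, rgs2 an inhibitor of G protein signalling, ccn1 a secreted matrix protein, arc a synaptic protein of active neurons, cxcr4 a chemokine receptor and cebpd a transcription factor. The level of zfp36l1.S was 107, 104 and 100 CPM in controls and 101, 97.5 and 97.9 CPM in thioridazine heads at stage 45. At stage 47 it was 118, 110 and 138 CPM in controls and 127, 137 and 118 CPM in thioridazine heads, where it was not called (log2 fold change 0.36, adjusted p = 0.0511). Of these 10, 7 stood on the lists of related genes described next. By rank correlation 5 of the 10 were the same, and 3 of the first 10 stood on those lists. On deviations from the group means the first 10 were neurl4.S, MGC68699, znf653.L, usp48.L, fgd3.L, gpam.S, syt11.S, ctbp2.S, zfp36l1.S and porcn.L (0.90 to 0.95), and zfp36l1.S alone was in both sets of 10 and on a list of related genes. The share of listed genes among all candidates was not computed.

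Other genes of the early response were taken from lists of related genes. Among genes that feed back on the response, 31 rows were tested, and both copies of zfp36 and rgs2 were called higher between stages in control and in thioridazine heads, with none lower. The level of rgs2.L rose from 63.5 ± 2.95 to 116 ± 12.9 CPM in controls (adjusted p = 0.00160) and from 50.3 ± 2.52 to 114 ± 15.2 CPM in thioridazine heads (adjusted p = 0.000474). Its copy rgs2.S rose 1.93-fold and 1.90-fold. The log2 fold changes of zfp36.L and zfp36.S were 0.51 and 0.44 in controls and 0.68 and 0.65 in thioridazine heads. The list's median log2 fold change was 0.08 in controls and 0.23 in thioridazine heads. Of 14 tested rows of early secreted and matrix genes, ccn1.L and ccn1.S rose in both kinds of head, ccn1.S from 43.7 ± 5.01 to 85.7 ± 26.0 CPM in controls and from 41.8 ± 3.62 to 98.5 ± 8.23 CPM in thioridazine heads. The connective tissue factor ccn2.L rose in thioridazine heads (1.53-fold, adjusted p = 0.0258). This list's medians were 0.36 and 0.46, 11 of its 14 rows had a positive value in each kind of head, and none was called lower.

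Among 7 tested AP-1 and ATF relatives, jund.L, the remaining Jun gene, rose in thioridazine heads from 11.7 ± 1.24 to 18.8 ± 3.87 CPM (adjusted p = 0.0406) and measured 11.2 ± 1.76 and 16 ± 2.98 CPM in controls (adjusted p = 0.115). The list's median was 0.05 in thioridazine and 0.08 in control heads. Among 29 tested rows of other early response transcription factors none was called higher between stages, while 17 had a positive log2 fold change in controls and 20 in thioridazine heads. In controls ier5.L, ier5.S, ier5l.L and klf10.S fell (log2 fold changes -0.31, -0.37, -0.50 and -0.48), and in thioridazine heads ier5.S and klf10.S fell (-0.55 and -0.57). The medians of this list were 0.06 and 0.23. Of 11 rows of neuronal activity genes, arc.L rose 1.94-fold (adjusted p = 0.0429) and scg2.L, a secretory granule protein, 1.36-fold (adjusted p = 0.0328) in thioridazine heads, while none was called in controls, where scg2.L had the smallest p (adjusted p = 0.0703). The medians were 0.25 in thioridazine and 0.21 in control heads. In all, 15 of the 153 tested rows of 8 such lists were called higher and 5 lower in thioridazine heads, where 2.09% and 2.77% of all tested genes were. In controls 8 were called higher and 7 lower, where 3.03% and 3.21% of all tested genes were. The counts of lower rows lay near those shares.

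None of these 153 rows was called between thioridazine and control heads at either stage, nor for the difference of the stage changes (edgeR). At stage 45 the rows with the smallest p of 7 of these lists were atf7.L, nr4a2.S, rgs2.L, hbegf.S, npas4.L, hspb1.S and mmp13.S (adjusted p = 0.413 to 1.00). The nr4a1 relative nr4a2.S measured 6.12, 8.43 and 7.01 CPM in thioridazine against 10.5, 9.74 and 9.60 CPM in control heads, a log2 fold change of -0.47 (unadjusted p = 0.00903). The neuronal factor npas4.L measured 0.843, 0.766 and 0.984 CPM against 1.08 to 2.31 CPM, a log2 fold change of -0.91. In both rows, which the smallest p of their lists picked, every thioridazine library lay below every control library, as in 5.36% of all tested genes. The copy nr4a2.L overlapped, at 6.61, 8.85 and 6.89 CPM in thioridazine and 9.15, 8.90 and 8.38 CPM in control heads. At stage 47 the rows were jund.L, bhlhe40.L, nfkbia.S, il1b.S, homer1.L, crem.L, gadd45g.L and mmp13.S (adjusted p = 0.721 to 1.00). For the difference of the stage changes they were atf4.S, nr4a2.S, spry4.L, il1b.S, npas4.L, crem.L, hspb1.S and timp3.S (adjusted p = 1.00 for each), and that of nr4a2.S was 0.69.

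Summed levels of some cell type marker lists did not overlap between stages. Of 9 marker lists, the summed level did not overlap between stages of thioridazine heads for epidermis (10 rows, 1040 to 1234 CPM at stage 45 and 1288 to 1363 CPM at stage 47) and cartilage (8 rows, 1975 to 2228 and 1359 to 1654 CPM). It overlapped for the lists of neurons, skeletal muscle, liver, photoreceptors, myeloid cells, red blood cells and pigment cells. In thioridazine heads the median log2 fold change of single rows between stages was 0.02 for epidermis and -0.29 for cartilage, with none called. The epidermal sum thus moved without the typical row. In controls these medians were 0.38 and -0.44. In controls 5 lists were higher at stage 47 without overlap (neuron, epidermis, liver, myeloid and red blood cells) and 2 lower (cartilage and pigment cells). Of single tested genes, 11.7% were higher and 13.3% lower without overlap in controls, and 11.4% and 13.8% in thioridazine heads. A sum over several rows is another measure than a single gene, so shares of single genes are no direct yardstick for the sums. The myeloid sum (9 rows) was 74.1 to 86.6 and 93.6 to 113 CPM in controls and 91.8 to 123 and 108 to 142 CPM in thioridazine heads. By edgeR, single marker rows called higher between stages in controls were 4 of 10 for epidermis and 1 each for neurons, myeloid and red blood cells, and 2 of 10 photoreceptor rows were called lower. The shares of all tested genes were 3.03% higher and 3.21% lower. In thioridazine heads 1 neuronal and 1 red blood cell row were called higher, where 2.09% of all tested genes were. At stage 45, epidermal, myeloid and pigment sums were higher and the muscle sum lower in thioridazine than in control heads without overlap. Of single tested genes 4.19% were higher and 5.36% lower in this way. At stage 47 the pigment sum was higher and the liver sum lower, where 4.78% and 4.82% of single tested genes were. There 3 of 5 pigment rows and 1 of 10 photoreceptor rows were called higher, against 0.0739% of all tested genes. No marker row was at 0 in all libraries, and the part of these shifts in the levels of the immediate early genes was not tested.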

How the data were processed

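The authors deposited 1 table of raw counts for each of 12 libraries. Trimmomatic, HISAT2, HTSeq and DESeq2 are listed, without versions, in the submitters' processing notes. Which build and annotation were used, and what became of multiply mapped reads, is not given in the sources used here. Per the labels' protocols, libraries came from a TruSeq kit without strand information and were read as single 100 bp reads. Windows line ends were stripped from 3 of 12 files. The Xenopus_laevis_v10.1 gene table named 33597 of 37018 identifiers. Its coordinates were not used, and no sequences are shown.

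Counts were filtered (filterByExpr), scaled with TMM and fitted in R 4.3.3 with edgeR 4.0.16 (robust quasi-likelihood, a coefficient for each of 4 groups, 5 contrasts). Standard errors and 95% intervals come from the fold change and its F value. The edgeR fit without a block was checked on simulated counts of independent libraries, which share nothing by replicate number. The alternatives were not checked in this way. Log2 CPM used a prior count of 2. DESeq2 1.42.0, other scalings and filters, a fit of the compared groups alone, replicate blocks, summed homeologs and leaving out each library were alternatives. Replicates were no duplicates (Spearman correlation of counts 0.979 to 0.989, chi-square per gene 5.62 to 13.6).

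Same-numbered thioridazine and control libraries deviated together (correlation across genes 0.336, 0.586 and 0.326 at stage 45, 0.180, 0.225 and 0.471 at stage 47, each above 0.1). Unlike-numbered libraries had correlations from -0.435 to 0.110 at stage 45 and from -0.322 to 0.0951 at stage 47. For the pairs and blocks given above, the numbers were therefore taken to pair the treatments, which the labels do not state. The main fit and its shares of all tested genes leave this pairing out. With a block within each stage, 268 genes were called between treatments at stage 45 and 171 at stage 47, none of them an immediate early gene row. Between stages same-numbered libraries did not all deviate together (0.181, 0.0141 and 0.352 in controls, 0.562, 0.0401 and 0.0873 in thioridazine heads).

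The members and lists were chosen with earlier results of these data known. All members are named, with every called gene of the 8 related lists, the gene of smallest p per list and contrast (1 of these is not reported here), and the 10 genes most correlated with the members. The lists cover AP-1 relatives, other early transcription factors, feedback inhibitors, secreted genes, neuronal activity, upstream regulators, stress and AP-1 targets.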

Additional observations from a re-analysis of the deposited data

How the results depend on the processing

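No alternative called an immediate early gene row between thioridazine and control heads or for the difference of the stage changes. In thioridazine heads 2 to 7 rows were called between stages when a library was left out, against 6. Under the other settings the count was 4 to 8, where the 4 are genes with both copies summed and not rows. In controls 0 to 2 were called when a library was left out, 3 with DESeq2, 2 with upper-quartile scaling or the replicate block, and 0 in a fit of the compared groups alone or with the block within each treatment, against 1. Counts over all genes were, at stage 45, 76 with DESeq2, 16 with the replicate block, 268 with the block within each stage and 0 to 9 without a library, against 0. At stage 47 they were 68, 51, 171 and 0 to 24, against 20. For the stage change they were 660 with the compared groups alone, 3068 with the replicate block and 429 to 1768 without a library in controls, against 1689. In thioridazine heads they were 1976 with DESeq2, 2704 with the replicate block and 392 to 1738 without a library, against 1314. For the difference they were 4 with DESeq2 and 27 with the block within each stage, against 0, and 0 without any library. The cause of these shifts was not tested.

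The labels do not say whether the replicate numbers pair the stages, and same-numbered libraries of both stages did not all deviate together. With the replicate block jun.L was called in controls too (adjusted p = 0.0397), while egr1.L (0.0344) and jun.S (0.0350) joined and fos.S (0.0526) left the calls in thioridazine heads. With the block within each treatment both fos copies were lost there (0.0556 and 0.0723), and egr1.L joined (0.0436). Blocks changed no treatment call of the 17 rows. Without the filter fos.S was lost (0.0508). Of 1683 row values under alternatives 60 changed sign, none of them called, and the largest of these was 0.18 in size. The mean summed level of control heads of stage 47 was 248 to 290 CPM without single libraries. The shallowly read rows (fosl2, egr2.L, atf3, fosb) are limited by depth, and the "only the groups compared" setting has no value for the difference.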

Other observations

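The lists of upstream regulators, stress genes and AP-1 targets were described by the same rule. Of all tested genes, 3.03% were called higher and 3.21% lower between stages in controls, and 2.09% and 2.77% in thioridazine heads. Among 29 tested rows of upstream regulators (kinases and factors that act on immediate early promoters), elk3.L, a partner of serum response factor, fell between stages in controls (log2 fold change -0.48, adjusted p = 0.0217) and in thioridazine heads (-0.48, adjusted p = 0.0260). None of that list was called higher, and its medians were -0.07 and -0.06. A count of 1 lower row among 29 lay near the shares of all tested genes. Of 26 tested stress rows, both copies of the chaperone hsph1 fell in both kinds of head, hsph1.L by a log2 fold change of -0.62 in controls and -0.51 in thioridazine heads, and hsph1.S by -0.59 and -0.54. The growth arrest genes gadd45a.S, gadd45g.L and gadd45g.S rose in thioridazine heads (1.73-fold, 1.42-fold and 1.43-fold), and no stress row was called higher in controls. The medians of the stress list were -0.08 in controls and 0.04 in thioridazine heads.

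Of 6 tested AP-1 targets in matrix turnover, the collagenase mmp13.S rose 3.23-fold in controls to 9.31 ± 2.19 CPM (adjusted p = 0.00372) and 2.75-fold in thioridazine heads to 12.6 ± 2.03 CPM (adjusted p = 0.00571). The stromelysin mmp3.L rose 1.68-fold and 1.55-fold. No row of this list was called lower, and its medians were 0.59 and 0.79. The stage changes of these genes were called in control heads as well as in thioridazine heads, and a difference between both was not called for any of them.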
